A study of Trichoderma reesei QM6a with 6 samples.

Results

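The genes described here are the 6 that were named for the yellow pigment cluster of Trichoderma reesei, the fungus used in industry for its secreted cellulases. They were chosen by locus tag from the 9113 genes of the deposited normalized table. TRIREDRAFT_73618 and TRIREDRAFT_73621 are polyketide synthases, TRIREDRAFT_73623 is a monooxygenase, TRIREDRAFT_43701 is a transporter of the major facilitator superfamily (MFS), and TRIREDRAFT_102497 and TRIREDRAFT_102499 are regulators of the cluster. All 6 were found in the table.

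Sorbicillinoids are yellow polyketides. In the ascomycete fungi that make them, a pair of polyketide synthases builds sorbicillin from acetyl-CoA and malonyl-CoA units, and a flavin-dependent monooxygenase oxidizes sorbicillin to the reactive sorbicillinol, from which the dimeric pigments form. The genes sit side by side with those of transporters and of transcription factors that act on the cluster, an arrangement typical of fungal secondary metabolism. Many such clusters are transcribed at low levels in mycelium that is growing on a readily used sugar.

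Poly(A) RNA was sequenced from 3 libraries of Δace1, a strain that lacks ace1, and from 3 libraries of its parent QM6a, which carries the wild-type gene. Ace1 is a zinc finger protein known in T. reesei as a repressor of cellulase and xylanase genes. Both strains were cultivated in MA medium with 1% D-glucose for 24 h at 28 °C and 250 rpm, and the washed mycelia were then moved to the same medium with 1% D-mannitol, a sugar alcohol, for 3 h. How the deletion was made, how many transformants were used and whether the replicates were separate cultures is not given in the sources used here, and the p-values therefore refer to the spread among these libraries. The question put to the cluster is whether its transcript levels on mannitol depend on ace1.

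Total estimated counts per library were 5482552 to 6424125 for Δace1 and 6072118 to 6938203 for QM6a, and a floor of 3 counts corresponded to 0.432 to 0.547 CPM (counts scaled to a fixed library size) of a library's total. This floor, like the counting intervals below, covers counting error only. Transcripts of ace1 (TRIREDRAFT_75418) numbered 6, 7 and 14 counts in the Δace1 libraries, against 8432, 7765 and 8001 in the QM6a libraries, so each library had the ace1 level of its label. Between the strains 6274 of 7769 tested genes were called in edgeR's quasi-likelihood test at a Benjamini-Hochberg adjusted p below 0.05, which is 80.8%. Of all tested genes 41.2% were called higher in Δace1 and 39.5% lower.

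The cluster was transcribed at a low level in both strains. Its 6 genes together took 234, 219 and 201 counts in the Δace1 libraries, against 94, 104 and 120 counts in the QM6a libraries. As a part of each library's total this was 36.4, 37.6 and 36.7 CPM in Δace1, against 13.5, 17.1 and 19.3 in QM6a. The exact 95% counting intervals ran from 31.8 to 42.9 over the Δace1 libraries and from 10.9 to 23.1 over the QM6a libraries. Regulator TRIREDRAFT_102497 alone supplied 58.1% to 61.2% of the cluster's counts in Δace1 and 55.3% to 66.7% in QM6a. Of the 6 genes 4 had enough counts to be tested. Synthases TRIREDRAFT_73618 and TRIREDRAFT_73621 and regulator TRIREDRAFT_102497 rose in Δace1, and the transporter TRIREDRAFT_43701 did not pass the test. That 3 of 4 tested genes were called higher is to be read against the 41.2% of all tested genes that were, and the median log2 change was 0.76 for these 4 genes and 0.03 for all tested genes. Genes near the floor, TRIREDRAFT_73621 among them, enter the test through the strain in which they are higher, so the 4 tested genes do not stand for all 6. In RNA from whole mycelium, fewer cells that transcribe a gene and less RNA per cell cannot be told apart.

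**Figure D1:**
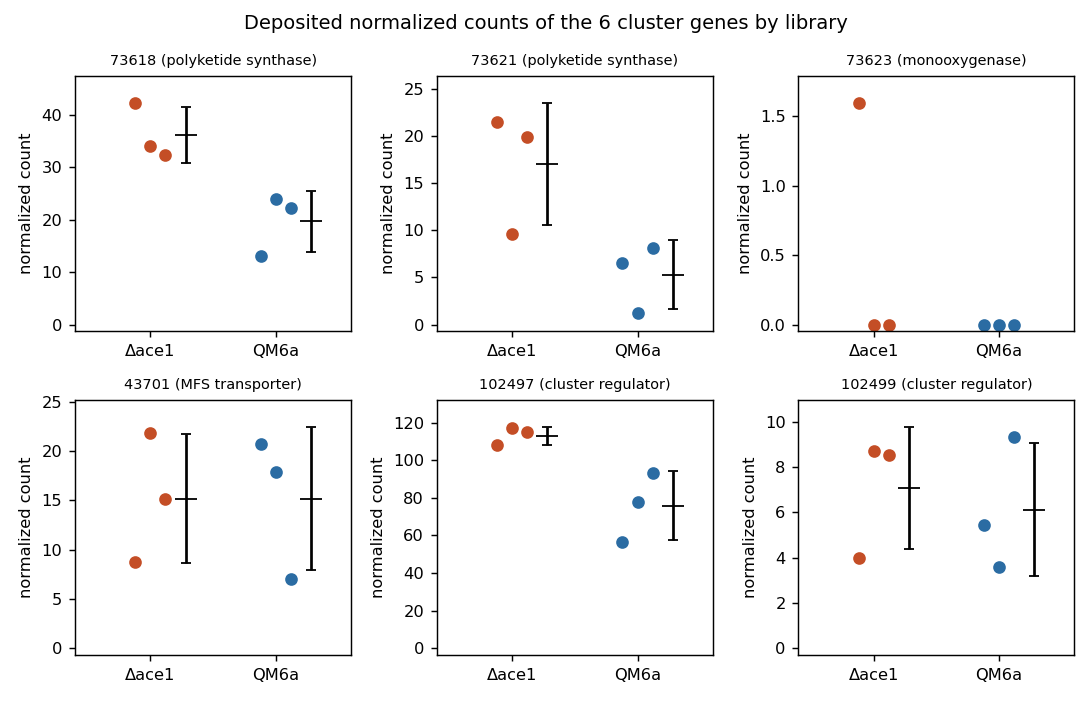
Deposited normalized counts (reads divided by 1 size factor per library, linear axis) of the 6 cluster genes, with 1 point per library, Δace1 left and QM6a right; bars give the mean ± SD of 3 libraries and are left out for TRIREDRAFT_73623, which had 2 reads in all. The Δace1 points of TRIREDRAFT_73618, TRIREDRAFT_73621 and TRIREDRAFT_102497 lie above all QM6a points, and those of TRIREDRAFT_43701 and TRIREDRAFT_102499 overlap them. Of all tested genes 41.4% had every Δace1 library above every QM6a library.

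Of the synthase genes, TRIREDRAFT_73618 was the more abundant. It had 53, 39 and 34 counts in the Δace1 libraries, against 12, 20 and 19 in the QM6a libraries. As deposited normalized counts these were 42.1, 34.0 and 32.2 in Δace1, against 13.1, 23.9 and 22.2 in QM6a. Every Δace1 library was above every QM6a library on this scale, as was the case for 41.4% of all tested genes. The mean was 5.93 ± 0.862 CPM in Δace1 and 3.19 ± 0.939 CPM in QM6a (SD, n = 3 each; CPM scaled by TMM, which corrects library totals for composition). The log2 change was 0.91 (SE 0.25; edgeR, adjusted p = 0.00315), a 1.88-fold difference with a 95% interval of 1.30 to 2.71. Scaled by library totals instead, the log2 change was 1.41.

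The second synthase gene, TRIREDRAFT_73621, was at a lower level and varied more. Its counts were 27, 11 and 21 in the Δace1 libraries, against 6, 1 and 7 in the QM6a libraries. The normalized counts were 21.5, 9.60 and 19.9 in Δace1, against 6.54, 1.19 and 8.17 in QM6a. Every Δace1 library was above every QM6a library on this scale, as was the case for 41.4% of all tested genes. The lowest Δace1 library and the highest QM6a library lay close together. The mean was 2.79 ± 1.05 CPM in Δace1 and 0.860 ± 0.594 CPM in QM6a (SD, n = 3 each). The log2 change was 1.67 (SE 0.47; edgeR, adjusted p = 0.00403). This gene entered the test through its counts in Δace1, the strain in which it was higher. Its 1 count in QM6a replicate 2 was below the floor of 3 counts. The call is therefore no independent support for a rise of the cluster. The 95% interval of the log2 change, 0.66 to 2.67, was wide. It held the estimate for TRIREDRAFT_73618, and whether the synthase genes differ in their response was left undecided. Their ratio within libraries, given below, cannot decide it, since an exact permutation test of 3 against 3 libraries gives no p below 0.1.

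The monooxygenase gene TRIREDRAFT_73623 was not detected beyond stray reads. It had 2 counts in 1 Δace1 library and none in the other 5 libraries, below the floor of 3 counts throughout, so no fold is given and a difference between the strains was not detectable at this depth. Its 6 counts were the same as those of other genes with few reads, so its transcript could not be singled out in the tables that give lengths, and it has no level per length here. In the fit with no low count filter, in which 73.1% of all genes were called, its adjusted p was 0.266.

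The transporter gene TRIREDRAFT_43701, whose family moves small molecules across membranes, had 11, 25 and 16 counts in the Δace1 libraries, against 19, 15 and 6 in the QM6a libraries. The strains overlapped, with normalized counts of 8.74, 21.8 and 15.2 in Δace1, against 20.7, 17.9 and 7.01 in QM6a. The mean was 2.50 ± 1.07 CPM in Δace1 and 2.46 ± 1.16 CPM in QM6a (SD, n = 3 each). The log2 change was -0.00296 (SE 0.39), with a 95% interval of -0.83 to 0.83 (edgeR, adjusted p = 0.995), which leaves room for a change of up to 1.78-fold higher in Δace1. With library totals the log2 change was 0.50 and was not called either (edgeR, adjusted p = 0.234).

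The regulators of the cluster differed in level. Gene TRIREDRAFT_102497 was the most abundant of the 6, with 136, 134 and 121 counts in the Δace1 libraries, against 52, 65 and 80 in the QM6a libraries. The normalized counts were 108, 117 and 115 in Δace1, against 56.7, 77.6 and 93.4 in QM6a. The Δace1 libraries lay close together, and the QM6a libraries were spread more widely. Every Δace1 library was above every QM6a library, as was the case for 41.4% of all tested genes. The mean was 18.6 ± 0.767 CPM in Δace1 and 12.3 ± 3.02 CPM in QM6a (SD, n = 3 each). The log2 change was 0.60 (SE 0.16; edgeR, adjusted p = 0.00258), a 1.52-fold difference with a 95% interval of 1.20 to 1.92. With library totals it was 1.10 on the log2 scale, so its size depended on the scaling.

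Regulator TRIREDRAFT_102499 was near the floor. It had 5, 10 and 9 counts in the Δace1 libraries, against 5, 3 and 8 in the QM6a libraries, and was below the count filter. The normalized counts were 3.97, 8.73 and 8.54 in Δace1, against 5.45, 3.58 and 9.34 in QM6a, so the strains overlapped. The ratio of its summed counts, Δace1 over QM6a and scaled by TMM, was 1.15 with an exact 95% counting interval of 0.585 to 2.31. In the fit with no low count filter the log2 change was 0.19 (SE 0.51; edgeR, adjusted p = 0.745).

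For a single gene, an exact two-sided permutation test of CPM over 3 against 3 libraries cannot give a p below 0.1. It gave this smallest p for TRIREDRAFT_73618, TRIREDRAFT_73621 and TRIREDRAFT_102497. The exact permutation p was 1 for TRIREDRAFT_43701 and for TRIREDRAFT_73623, and 0.9 for TRIREDRAFT_102499.

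Levels can be compared between the genes only per length, for which the deposited TPM values (abundance per effective length, with the same sum in every library) were used. Regulator TRIREDRAFT_102497 lay between 9.98 and 10.7 TPM in the Δace1 libraries, against 2.86, 4.12 and 4.98 TPM in the QM6a libraries. It was the only one of the 5 genes with a TPM value whose lowest library was above the highest library of every other cluster gene in the same strain. The transporter TRIREDRAFT_43701 came next, with 1.01, 2.51 and 1.66 TPM in Δace1, against 1.31, 1.19 and 0.468 TPM in QM6a. Synthase TRIREDRAFT_73618 had 0.983, 0.790 and 0.712 TPM in Δace1, against 0.167, 0.321 and 0.299 TPM in QM6a. In both strains its range overlapped that of regulator TRIREDRAFT_102499, which had 0.355, 0.776 and 0.722 TPM in Δace1 and 0.266, 0.184 and 0.482 TPM in QM6a. Synthase TRIREDRAFT_73621 was lowest by mean, with 0.488, 0.217 and 0.429 TPM in Δace1, against 0.0813, 0.0156 and 0.107 TPM in QM6a.

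By mean TPM only 28.5% of all 9115 transcripts were lower than TRIREDRAFT_102497 in Δace1, and 29.6% in QM6a. For TRIREDRAFT_73618 the share was 11.4% in Δace1 and 12.8% in QM6a, and for TRIREDRAFT_73621 it was 8.79% in Δace1 and 8.35% in QM6a. The place of each synthase gene among all transcripts thus moved little between the strains. For TRIREDRAFT_43701 the share was 14.7% in Δace1 and 19.6% in QM6a, and for TRIREDRAFT_102499 it was 10.4% in Δace1 and 13.5% in QM6a. The median transcript had 29.3 TPM in Δace1 and 15.8 TPM in QM6a, so TPM values of a typical gene were higher in Δace1. All 5 genes were below the median in both strains, and only TRIREDRAFT_102497 was above the lower quartile, which was 7.50 TPM in Δace1 and 2.20 TPM in QM6a.

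**Figure D2:**
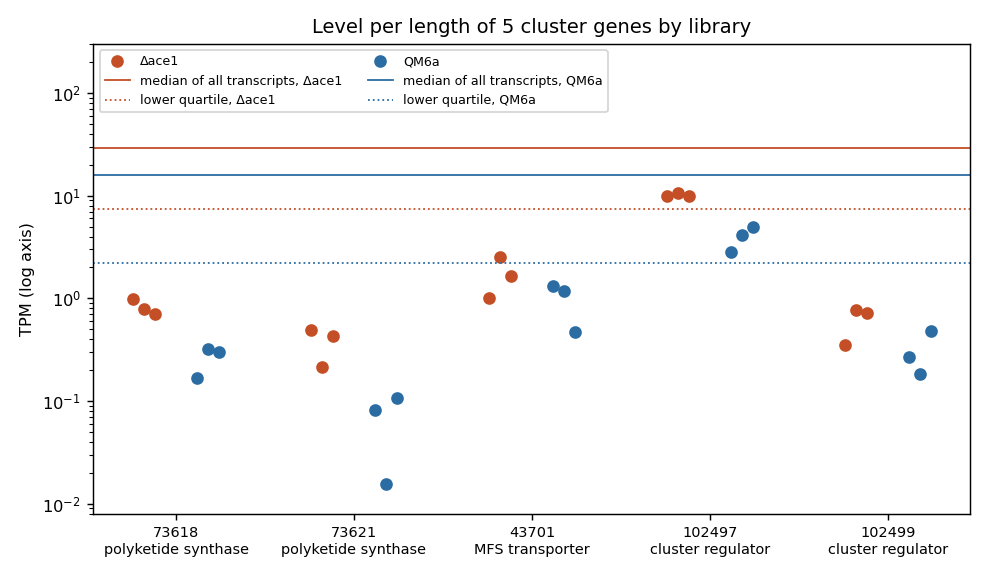
TPM (log axis) of the 5 cluster genes that have a TPM value, with 1 point per library and Δace1 left of QM6a; solid and dotted lines mark the median and lower quartile of all 9115 transcripts in each strain. Only TRIREDRAFT_102497 lies above the lower quartile of its strain, at 9.98 to 10.7 TPM in Δace1 and 2.86 to 4.98 TPM in QM6a.

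Ratios between the genes within a library do not depend on how libraries are scaled, and are given for the 4 tested genes as a description. Synthase TRIREDRAFT_73618 and regulator TRIREDRAFT_102497 had the ratio that varied least. They also had the highest summed counts of the tested cluster genes in each strain, and counting error widens a ratio less at higher counts. The narrow spread therefore does not show that they moved together. The ratio, with 0.5 added to each count, was 0.392, 0.294 and 0.284 in the Δace1 libraries, against 0.238, 0.313 and 0.242 in the QM6a libraries, and the strains overlapped. The ratio of TRIREDRAFT_73618 to TRIREDRAFT_73621 was 1.95, 3.43 and 1.60 in Δace1, against 1.92, 13.7 and 2.60 in QM6a. The value of 13.7, in QM6a replicate 2, rested on 1 count of TRIREDRAFT_73621. The ratio of TRIREDRAFT_73621 to the transporter TRIREDRAFT_43701, the pair with the largest difference, was 2.39, 0.451 and 1.30 in Δace1, against 0.333, 0.0968 and 1.15 in QM6a. On the log2 scale this ratio averaged 0.16 ± 1.22 in Δace1 and -1.58 ± 1.79 in QM6a (SD, n = 3 each), a difference of 1.75 that did not pass an exact two-sided permutation test (p = 0.2, 0.6 after Benjamini-Hochberg adjustment over 6 pairs). In all 6 pairs the strains overlapped, with exact permutation p-values of 0.2 to 0.6. With 3 libraries of each strain this test could not have passed 0.05, so unequal responses of the synthase, transporter and regulator genes were not shown, and equal ones were not shown either.

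In the reference order of genes the 6 lie next to each other, interrupted only by TRIREDRAFT_73631 between the regulators TRIREDRAFT_102497 and TRIREDRAFT_102499. The reference table gives this gene no symbol. Its counts were 5, 8 and 4 in the Δace1 libraries, against 1, 2 and 2 in the QM6a libraries, and it was below the count filter. The normalized counts were 3.97, 6.98 and 3.79 in Δace1, against 1.09, 2.39 and 2.34 in QM6a. Every Δace1 library was above every QM6a library, as was the case for 41.4% of all tested genes. The ratio of the summed counts of TRIREDRAFT_73631 was 2.60 with an exact 95% counting interval of 0.922 to 9.02. On the side of TRIREDRAFT_73618 the next gene, TRIREDRAFT_102492, had 5, 2 and 1 counts in Δace1, against 0, 0 and 1 in QM6a. The gene at that edge of the cluster was thus also near the floor.

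Beyond TRIREDRAFT_102499 lie TRIREDRAFT_102500 and then axe1, cip1 and cel61a. These last encode an acetyl xylan esterase, a cellulose-induced protein and a cellulose-active oxidative enzyme, which the fungus makes for plant cell wall breakdown. None of axe1, cip1 and cel61a carried more than 2 counts in a library. The gene axe1 had 2, 1 and 0 counts in Δace1, against 0, 0 and 0 in QM6a. The chitinase gene chi18-1, on the other side, had 0, 1 and 0 counts in Δace1, against 0, 1 and 0 in QM6a. Beyond chi18-1, TRIREDRAFT_102489 had 2, 1 and 2 counts in Δace1, against 1, 0 and 0 in QM6a. TRIREDRAFT_54723, the next gene, had no counts. Low genes thus extended past the pigment genes on both sides. TRIREDRAFT_102500 was an exception on the side of cel61a, and TRIREDRAFT_53776 on the side of chi18-1. TRIREDRAFT_102500 rose, to 34.3 ± 2.83 CPM in Δace1, against 9.87 ± 1.65 CPM in QM6a (SD, n = 3 each), and its log2 change was 1.79 (SE 0.14).

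Of 21 neighbours, up to 10 on each side of the cluster and the 1 within it, 12 were tested. Of these 7 rose, 2 fell and 3 did not pass the test, against 41.2% of all tested genes called higher and 39.5% called lower, and their median log2 change was 0.53. TRIREDRAFT_102487 had the largest increase, at 56.1 ± 3.87 CPM in Δace1 and 7.24 ± 1.01 CPM in QM6a (SD, n = 3 each), and its log2 change was 2.95. TRIREDRAFT_53776, which is 1 gene removed from synthase TRIREDRAFT_73618 past TRIREDRAFT_102492, rose by 1.55 on the log2 scale, TRIREDRAFT_54230 rose by 2.30, TRIREDRAFT_53401 by 0.74, TRIREDRAFT_73647 by 0.59 and TRIREDRAFT_73646 by 0.46. TRIREDRAFT_53366 fell by 1.62 on the log2 scale. TRIREDRAFT_54042 fell by 0.58 with TMM, was not called with library totals (-0.081) and was above 0 on log2(TPM + 1) and log2(TPM + 0.1). The 3 that did not pass were TRIREDRAFT_119578, TRIREDRAFT_43680 and TRIREDRAFT_54902, with log2 changes of 0.16, -0.07 and -0.10. TRIREDRAFT_43680 was called higher with library totals (0.43), as was TRIREDRAFT_119578 (0.66). The 9 untested neighbours had at most 12 counts in a library.

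**Figure D3:**
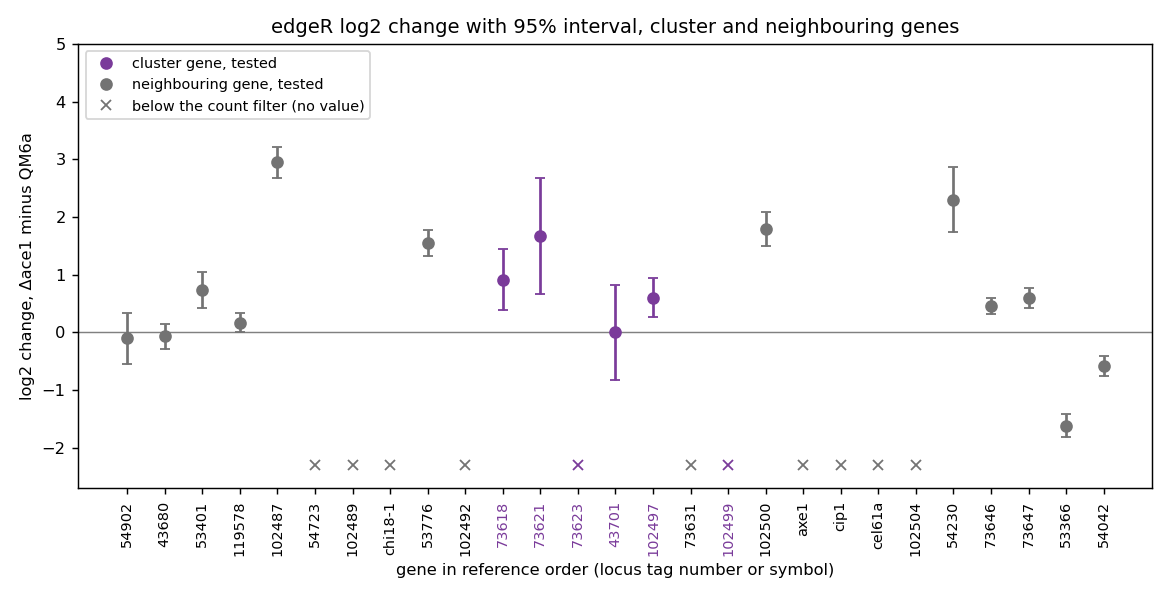
Log2 change (Δace1 minus QM6a, edgeR with TMM scaling) with its 95% interval for the 4 tested cluster genes (purple) and 12 tested neighbours (grey), in the order of the reference table; crosses mark genes below the count filter, at an arbitrary height. The tested cluster genes run from -0.00296 to 1.67, inside the range of their neighbours, -1.62 to 2.95.

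Polyketide synthase genes outside the cluster were represented by TRIREDRAFT_82208, listed as pks4, a synthase known for the pigment of conidia. It had 7, 8 and 12 counts in the Δace1 libraries, against 4, 8 and 5 in the QM6a libraries, and was not tested. As the marker of conidia used here it was near the floor in all 6 libraries, and the ratio of its summed counts was 1.22 with an exact 95% counting interval of 0.639 to 2.38.

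Genes known to act on secondary metabolism in fungi changed in both directions. All 6 listed regulators were called, 3 higher and 3 lower, with a median log2 change of 0.12. Of all tested genes 80.8% were called, 41.2% higher and 39.5% lower, so this count is near the background. Of these only cre1, the carbon catabolite repressor, and xyr1, the activator of cellulase and xylanase genes, carry their symbol in the reference table. The other names are those of the gene list used here. TRIREDRAFT_122879, listed as xpp1, had 210, 205 and 172 counts in the Δace1 libraries, against 416, 491 and 539 in the QM6a libraries. It fell by 1.69 on the log2 scale (SE 0.11; edgeR, adjusted p = 9.79e-10). TRIREDRAFT_122284, listed as vel1, had a mean of 518 TPM in Δace1 and 125 TPM in QM6a, which is of another order than the 10.3 and 3.99 TPM of the most abundant cluster gene, TRIREDRAFT_102497, in those strains. Its log2 change was 1.27. TRIREDRAFT_41617, listed as lae1, fell by 1.28 on the log2 scale with TMM, and neither TPM scale called it. TRIREDRAFT_120698, listed as pac1, rose by 1.93, xyr1 rose by 1.53 and cre1 fell by 1.04 on the log2 scale. On log2(TPM + 0.1) the falls were smaller, with log2 changes of -0.91 for TRIREDRAFT_122879, -0.57 for TRIREDRAFT_41617 and -0.26 for cre1, and the increases were larger, at 2.05 for TRIREDRAFT_122284, 2.69 for TRIREDRAFT_120698 and 2.30 for xyr1.

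Acetyl-CoA is the building block of polyketides. Of 4 listed genes of its cytosolic supply and of its use in the mitochondria, 1 rose and 3 fell, beside 41.2% of all tested genes called higher and 39.5% called lower, and their median log2 change was -1.52. Those of ATP citrate lyase, which releases acetyl-CoA from citrate, fell by 1.44 (acl1) and 1.59 (acl2) on the log2 scale, and cit1, for citrate synthase, fell by 2.50. The acetyl-CoA synthetase gene acs1 had 6273, 5721 and 4528 counts in the Δace1 libraries, against 3768, 3367 and 3440 in the QM6a libraries, and its log2 change was 0.25 (SE 0.07). These sizes depended on the scaling. For acs1 the log2 change was 0.75 with library totals and 1.02 on log2(TPM + 0.1). On the last scale it was -0.67 for acl1, -0.82 for acl2 and -1.73 for cit1, and all 4 genes kept their direction and call.

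Regulator TRIREDRAFT_102497 was the one cluster gene abundant enough, at a mean of 15.4 CPM over the 6 libraries, for its pattern to be set against other genes. The 3 tested genes most like it by Pearson correlation of log2(CPM + 0.5) over the 6 libraries were TRIREDRAFT_41895 (r = 0.997), TRIREDRAFT_22000 (r = 0.993) and lxr1 (r = 0.993). In each of them, as in TRIREDRAFT_102497, the QM6a libraries were spread more widely on the log2 scale than the Δace1 libraries. They were picked for this likeness, so the shared spread is no separate finding. TRIREDRAFT_41895 averaged 47.0 ± 3.02 CPM in Δace1 and 18.7 ± 11.3 CPM in QM6a (SD, n = 3 each). The gene lxr1, named for L-xylulose reductase, averaged 44.7 ± 2.97 CPM in Δace1 and 8.77 ± 8.28 CPM in QM6a. The measure rests on 6 points that share their libraries and the difference between strains, and 362 of 7768 other genes reached an r of at least 0.9, so it is given as a description.

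How large the changes of the cluster genes were depended on the scaling of the libraries. Against TMM, the median of all genes was shifted on the log2 scale by 0.16 (upper-quartile scaling), 0.50 (library totals) and 0.77 (TPM with 0.1 added). With library totals, net of the shift, the log2 changes were 0.91 for TRIREDRAFT_73618, 1.66 for TRIREDRAFT_73621 and 0.60 for TRIREDRAFT_102497. They lay within 0.01 of those with TMM. Library totals and TMM differ only by a factor for each library, so this closeness was largely fixed in advance and is no separate check. On log2(TPM + 0.1) the log2 change of TRIREDRAFT_102497 was 1.37, or 0.60 net of the shift. That of TRIREDRAFT_73618 was 1.38, or 0.61 net of the shift, against 0.91 with TMM. That of TRIREDRAFT_73621 was 1.5, or 0.73 net of the shift, against 1.67 with TMM, and the 0.1 added was more than its mean of 0.0681 TPM in QM6a. The calls of TRIREDRAFT_73618, TRIREDRAFT_73621 and TRIREDRAFT_102497 as higher in Δace1 and the absence of a call for TRIREDRAFT_43701 were the same under each tool and scaling in which the gene was tested. The share of all tested genes called higher ranged with these settings. It was 40.9% with RLE scaling, 47.4% with upper-quartile scaling, 60.6% with library totals, 40.4% on log2(normalized count + 1), 34.7% with DESeq2, 67.7% on log2(TPM + 0.1), 69.5% on log2(TPM + 1) and 41.7% among genes with at least 50 counts in 3 libraries. The 10 most abundant transcripts held 11.5% to 13.2% of a Δace1 library, against 7.65% to 9.80% of a QM6a library, and the part of this difference in the shifts was not tested.

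**Figure D4:**
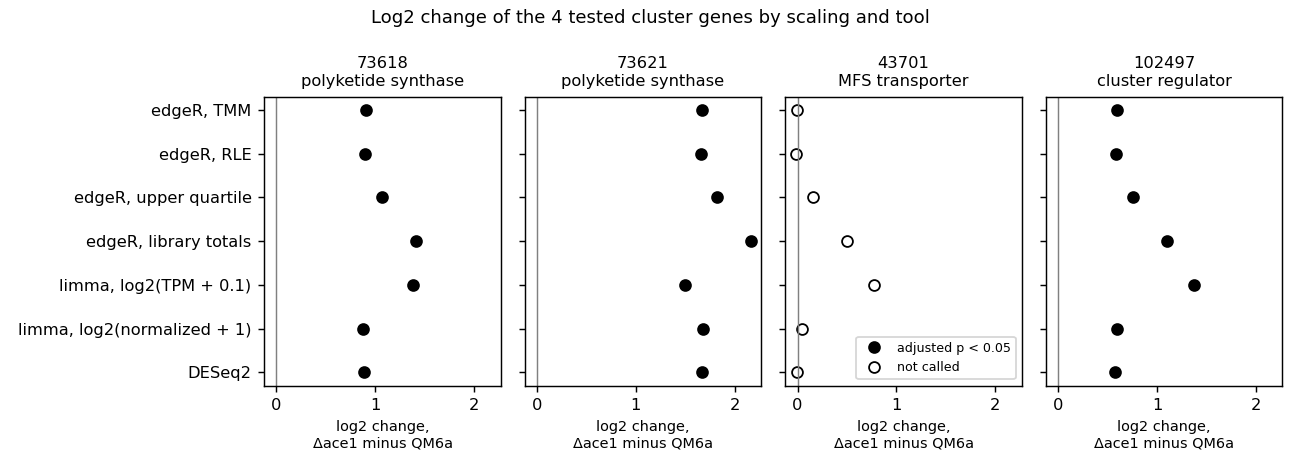
Log2 change (Δace1 minus QM6a, horizontal axis) of the 4 tested cluster genes under 7 combinations of tool and scaling (rows); filled points passed an adjusted p of 0.05 and open points did not. Synthases TRIREDRAFT_73618 and TRIREDRAFT_73621 and regulator TRIREDRAFT_102497 are filled in every row, and the transporter TRIREDRAFT_43701 is open in every row and runs from -0.015 to 0.77.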

How the data were processed

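The RNA was poly(A)-enriched and made into stranded TruSeq libraries, per the labels' protocols. The submitters' processing notes name FastQC 0.11.5, kallisto 0.43.1 and DESeq2 1.14.1. Neither the transcript set and its build nor the strand setting is given in the sources used here. For each library the authors deposited estimated counts, TPM values and coding lengths of transcripts, per the file headers. A further deposited table, of normalized signal, divides the count of every gene by the size factor of its library. Whole reads (to within 0.05) came back from 91.9% to 95.7% of its values when multiplied by that factor.

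No file pairs genes with transcripts, and they were joined by their counts in the 6 libraries, which singled out 1 transcript for 8526 genes and left 587 genes with counts common to several. Gene symbols and gene order came from RefSeq assembly v2.0. Its start positions were used only to check that the neighbours ran in rising order, and its sequences were not used.

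Estimated counts were rounded and tested with edgeR 4.0.16 in R 4.3.3 (TMM, filterByExpr, robust quasi-likelihood test, two-sided, Benjamini-Hochberg adjustment over all tested genes). A standard error (SE) is the log2 change over the root of F, and 95% intervals use the degrees of freedom of that fit. Alternatives used DESeq2 1.42.0 and limma 3.58.1. The procedures were tested on simulated data in which few genes changed and no changed gene was near the floor. That test does not bear on the scaling or on calls near the floor. No replicate was a second copy of another, since pairs within a strain differed with a chi-square of 2.87 to 27.6 for each degree of freedom.

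The members and lists were chosen with earlier results of these data known. Named genes are the members, ace1, up to 12 tested genes of each other list by mean TPM, and the 3 closest in pattern to a member with at least 10 CPM. Untested genes outside the cluster and the ratios within libraries were picked once their values had been seen. The list of polyketide synthases, planned by protein sequence, was reduced to 3 identifiers, and promoter motifs were not analysed here.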

Additional observations from a re-analysis of the deposited data

How the results depend on the processing

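In edgeR, DESeq2 and limma fits and without any single library, the number of cluster genes called was 3 (3 to 3 without single libraries), except with at least 50 counts in 3 libraries, where 1 gene, TRIREDRAFT_102497, was tested and 1 called, and on log2(TPM + 1), where 2 were tested and 1 called. Over all genes 6039 to 6265 were called without single libraries. With DESeq2 6069 were called and on recovered reads, an alternative chosen after seeing the data, 6274. The share called higher moved with the scaling, from 41.2% with TMM to 60.6% with library totals and 69.5% on log2(TPM + 1). On log2(TPM + 0.1) 15 rather than 12 neighbouring genes were tested and 14 rather than 9 called. Without single libraries the log2 change ranged from 0.67 to 1.07 for TRIREDRAFT_73618, from 1.22 to 2.08 for TRIREDRAFT_73621, from 0.42 to 0.78 for TRIREDRAFT_102497 and from -0.36 to 0.30 for TRIREDRAFT_43701. The sign of the uncalled TRIREDRAFT_43701 was positive with upper-quartile scaling (0.15), library totals (0.50), log2(TPM + 1) (0.45), TPM with 0.1 added (0.77) and normalized counts with 1 added (0.043). In the same order of settings, and leaving out the last, TRIREDRAFT_43680 had 0.086, 0.43, 0.69 and 0.69 (-0.15 to 0.055 without single libraries) and TRIREDRAFT_54902 had 0.058, 0.40, 0.58 and 0.66 (-0.30 to 0.13). TRIREDRAFT_54042 had 0.18 on log2(TPM + 1) and 0.19 on log2(TPM + 0.1). Of 462 recomputed log2 changes 433 kept direction and call and 21 changed sign. With or without a change of sign, 10 gained a call and 5 lost one. A replicate block called 3 cluster genes and 6223 genes; same-numbered libraries did not deviate together (correlations of -0.0111, 0.0323 and -0.0466), and 1 of 6 libraries, QM6a replicate 2, correlated best with its own number. TRIREDRAFT_73623 and TRIREDRAFT_102499, with at most 10 counts in a library, were below the count filter. The cause of these shifts was not tested.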
